A study of Homo sapiens with 4 samples.

Results

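The enzymes that write, read out and remove cytosine methylation were followed by their transcripts in TK6 cells, a human lymphoblastoid line that is heterozygous at the thymidine kinase locus. The group was 10 genes named by their function: the maintenance methyltransferase DNMT1 and its partner UHRF1, the de novo methyltransferases DNMT3A and DNMT3B, the dioxygenases TET1, TET2 and TET3, the glycosylase TDG, and the isocitrate dehydrogenases IDH1 and IDH2. Records of 9 of these 10 were analysed, out of 11415 genes in all, and all 9 passed the filter on low counts. TET1, whose locus is chr10:70320094-70454244 on the plus strand of GRCh37, was not analysed here, since no listed record carried this symbol. Listed records are those above 1 CPM in at least 1 library. CPM are read counts scaled to library size, and for this cutoff the size is the total over all records. The CPM printed below for genes are scaled to the smaller total over 1 record per gene, and so read higher.

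RNA was sequenced from cells in simulated microgravity (2 libraries), which were rotated at 12 rpm in suspension culture bioreactors, and from static control cells (2 libraries), which were held in the same kind of vessel without rotation. Both started from 200000 cells per ml and were kept for 48 hours. Rotation imitates microgravity on the ground, and all 4 libraries come from 1 cell line. Whether both libraries of a condition are independent cultures is not stated in the sources used here, and the p-values therefore cover no more than the variation among these 4 libraries.

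DNA methyltransferases place a methyl group on cytosine, mostly where a guanine follows. After replication UHRF1 binds the half-methylated sites and brings DNMT1, which copies the old strand's pattern onto the new strand, while DNMT3A and DNMT3B can methylate sites that carried no mark. TET enzymes oxidize methylcytosine to hydroxymethylcytosine and further forms in a reaction that uses oxygen, iron and 2-oxoglutarate, TDG cuts the most oxidized forms out for base excision repair, and IDH1 in the cytosol and IDH2 in mitochondria make 2-oxoglutarate from isocitrate.

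The totals over all records were 112609031 and 126368530 counts in simulated microgravity, against 119211458 and 122000359 in static control. Over 1 record per gene they were 57481518 and 64497287 in simulated microgravity, against 60911995 and 62317293 in static control. The CPM of genes are scaled to the latter totals. Replicates of a condition differed beyond sampling noise, with a common biological coefficient of variation of 6.77%. Of the B cell markers 8 of 10 were listed, among them CD79A, MS4A1 and PAX5, with summed levels of 3037 and 2881 CPM in simulated microgravity and 2913 and 2845 CPM in static control. The sum holds markers on both sides: none passed, but MS4A1 had 1240 and 1205 CPM in simulated microgravity, against 1017 and 1051 CPM in static control (log2 fold change 0.24, adjusted p = 0.104 by edgeR), and CD74 had 989 and 927 CPM in simulated microgravity, against 1099 and 1026 CPM in static control (-0.15, adjusted p = 0.582). None of 8 T cell markers was listed, and the myeloid, erythroid, fibroblast and epithelial lists had 1 listed gene each, ITGAM, EPOR, COL1A1 and KRT8, of which KRT8 was at 77.0 and 81.7 CPM in simulated microgravity and between 77.1 and 80.01 CPM in static control and the other 3 stayed under 10 CPM.

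None of the 9 genes passed the test between conditions. With edgeR's quasi-likelihood test and Benjamini-Hochberg adjustment over all genes, 0 of 9 had an FDR under 0.1, against a background of 1.1% of all 11415 genes (0.237% higher and 0.867% lower in simulated microgravity). At an unadjusted p under 0.05 there were 2 of 9, IDH1 on the higher side and TET2 on the lower side, against 8.08% of all genes (3.43% higher and 4.64% lower), and DESeq2, limma-voom, edgeR's exact test and edgeR's likelihood ratio test each called 0 of 9 as well. The log2 fold changes, simulated microgravity over static control, ran between -0.16 (TET2) and 0.20 (DNMT3A) with a median of 0.04, and all lay within the range of -0.31 to 0.25 that held the central 95% of all genes, whose median was 0.00065. The libraries of the conditions did not overlap for 5 of 9 genes, 4 higher in simulated microgravity and 1 lower, where 35.9% of all genes had such a split, 17.9% higher and 18.1% lower. This count hangs on small differences. TET3 overlapped by 45.350 CPM in simulated microgravity 1 against 45.345 CPM in static control 1, and on the scale of all records it was lower without overlap. With 2 libraries against 2, an exact permutation test of a single value cannot go below p = 0.333, so the fit across all genes carries the test.

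**Figure D1:**
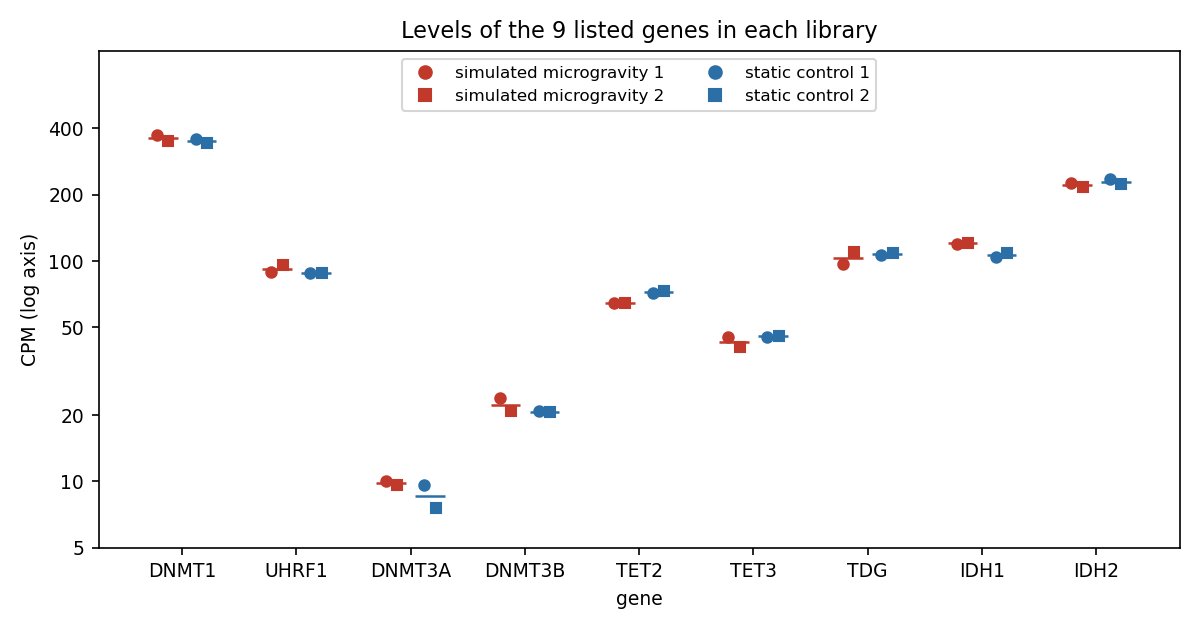
CPM of each gene (log axis) in 2 simulated microgravity libraries (red) and 2 static control libraries (blue), with circles for replicate 1, squares for replicate 2 and a bar for each mean. The highest level was 374 CPM, for DNMT1 in simulated microgravity 1, and the lowest was 7.56 CPM, for DNMT3A in static control 2, and the conditions lie close together for every gene.

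The sequences shown first belong to IDH1 and TET2, the 2 genes with the smallest p. They are the RefSeq promoter windows (GRCh38.p14, 250 bases before to 50 after the gene's start, coding strand), with each CpG, the main target of DNA methylation, in capitals. The IDH1 window is chr2:208255022-208255321 on the minus strand and the TET2 window is chr4:105146626-105146925 on the plus strand, and both contain the start of the measured record.
IDH1 promoter: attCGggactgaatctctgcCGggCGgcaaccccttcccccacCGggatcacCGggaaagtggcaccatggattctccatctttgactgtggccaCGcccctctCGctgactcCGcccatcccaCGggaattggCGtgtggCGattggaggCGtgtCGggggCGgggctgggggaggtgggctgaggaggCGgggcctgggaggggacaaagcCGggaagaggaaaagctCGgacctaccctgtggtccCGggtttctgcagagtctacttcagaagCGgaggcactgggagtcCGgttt
TET2 promoter: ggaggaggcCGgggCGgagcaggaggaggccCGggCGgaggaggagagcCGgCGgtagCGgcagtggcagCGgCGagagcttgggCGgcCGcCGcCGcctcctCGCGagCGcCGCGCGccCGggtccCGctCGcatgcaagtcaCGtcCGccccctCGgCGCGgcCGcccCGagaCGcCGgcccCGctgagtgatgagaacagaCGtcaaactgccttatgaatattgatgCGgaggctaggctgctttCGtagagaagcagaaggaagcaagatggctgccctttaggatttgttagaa
The IDH1 window has 20 CpGs and that of TET2 has 35. The median was 14 over all 35116 promoter windows and 25 over the 11960 windows of listed genes, so that 33.8% of the listed genes' windows had fewer CpGs than IDH1 and 77.1% had fewer than TET2. Windows that contain the measured record's start were at hand for 4 more genes: TDG with 22 CpGs, DNMT1 with 30, UHRF1 with 36 and DNMT3A with 46, the last above 95.6% of the listed genes' windows. Of these 6 windows, that of DNMT1 alone held the E2F-type motif TTTCGCGC or TTTGGCGC, searched on both strands, which 1.15% of all windows and 1.91% of the listed genes' windows hold. The windows of DNMT3B, TET3 and IDH2 do not contain the start of the measured record and were left aside. No methylation was read in these windows here.

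DNMT1 was the most abundant of the 9 transcripts by count. Its record NM_001130823 (hg19 chr19:10244022-10305755, minus strand) had 374 and 351 CPM in simulated microgravity, against 360 and 345 CPM in static control. The values of the conditions interleave, with replicate 1 above replicate 2 on each side. Its log2 fold change was 0.04 ± 0.08 (SE), with a 95% interval of -0.13 to 0.22 and an adjusted p of 0.980 by edgeR. Leaving out 1 library moved it to between -0.0019 (without simulated microgravity 1) and 0.09 (without simulated microgravity 2). The second record of the gene, NM_001379, spans the same interval and had nearly the same counts, with a log2 fold change of 0.04 in the fit over all records.

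UHRF1, which recognizes half-methylated DNA, had 89.0 and 95.7 CPM in simulated microgravity and 88.3 and 88.3 CPM in static control (NM_001048201, hg19 chr19:4909510-4962165, plus strand). Both simulated microgravity libraries were above both static control libraries, replicate 1 by less than 1 CPM. The log2 fold change of 0.06 ± 0.07 (SE) had an interval of -0.09 to 0.22 (adjusted p = 0.944, edgeR). It was 0.01 without simulated microgravity 2 and 0.12 without simulated microgravity 1. The other record, NM_013282, starts further downstream at 4910566 and also had a log2 fold change of 0.06.

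DNMT3A had the lowest level of the group, with raw counts of 587 and 618 in simulated microgravity, against 585 and 469 in static control. As CPM the simulated microgravity libraries had 10.1 and 9.64, against 9.61 and 7.56 in static control (NM_022552, hg19 chr2:25455830-25564784, minus strand). The conditions just failed to overlap, and the low value was static control 2. The log2 fold change was 0.20 ± 0.12 (SE, interval -0.06 to 0.46, adjusted p = 0.791 by edgeR), the largest and least precise of the 9. It was 0.04 without static control 2 and 0.38 without static control 1 (adjusted p = 0.825, unadjusted p = 0.0205), so 1 library decided its size. A record for a shorter transcript, NM_153759, which starts at 25475184 inside the gene and shares most reads with the long records, had counts of 554 and 557 in simulated microgravity, against 517 and 434 in static control. Its log2 fold change was 0.23 (adjusted p = 0.669 over all records), and that of NM_175629 was 0.20.

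DNMT3B, the other de novo enzyme, had 23.8 and 20.9 CPM in simulated microgravity, against 20.8 and 20.7 CPM in static control (NM_006892, hg19 chr20:31350191-31397162, plus strand). Simulated microgravity 1 stood above the other 3 libraries, which lay within 0.3 CPM of each other. DNMT3B had a log2 fold change of 0.11 ± 0.09 (SE, interval -0.08 to 0.30, adjusted p = 0.886 by edgeR), and this was 0.01 without simulated microgravity 1 and 0.20 without simulated microgravity 2 (unadjusted p = 0.0419, adjusted p = 0.487). All 6 records of the gene had log2 fold changes between 0.08 and 0.11, and since they share reads they are not independent measurements.

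TET2 was lower in simulated microgravity at an unadjusted p only. Its long record NM_001127208 (hg19 chr4:106067842-106200960, plus strand) had 64.7 and 64.8 CPM in simulated microgravity and 71.6 and 73.2 CPM in static control, from counts of 3762 and 4156 against 4354 and 4542. Replicates lay close together in each condition and the conditions did not overlap. The mean was 64.8 ± 0.114 CPM in simulated microgravity and 72.4 ± 1.18 CPM in static control (SD, n = 2 each). This was a log2 fold change of -0.16 ± 0.07 (SE) with an interval of -0.32 to -0.0035. The unadjusted p of the edgeR fit was 0.0456, and 7.64% of all genes had a smaller one, so that the adjusted p was 0.595. With any 1 library left out the log2 fold change ran between -0.18 and -0.14, while the unadjusted p of the edgeR fit was above 0.05 in all 4 of these fits, between 0.0616 and 0.226, and was 0.0561 with all libraries and no TMM scaling.

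TET2 has a second record, NM_017628 (hg19 chr4:106067032-106163928), which ends inside the gene, and it stood further below static control than the long one. Its transcript matches TET2-202 of the GENCODE annotation, with 3 exons against 11 in the long one. The exon with most of the shared coding sequence ends at 106158508 in the long transcript, and the short transcript reads on for 5420 bases, past a stop codon, to 106163928. The end of that exon on GRCh37 is shown because the records part there, with the last 60 shared bases in lower case and the short transcript's own 89 bases up to and including its stop codon in capitals (chr4:106158449-106158597, plus strand).
TET2 short transcript: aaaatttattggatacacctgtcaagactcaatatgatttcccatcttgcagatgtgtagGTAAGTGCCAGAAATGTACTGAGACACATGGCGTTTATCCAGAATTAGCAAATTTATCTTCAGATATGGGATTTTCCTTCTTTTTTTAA
The long transcript goes on to the exons that encode the catalytic domain, which the short one lacks.

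The short record had 1443 and 1577 counts in simulated microgravity, against 1793 and 1862 in static control. On the scale of all records, where the counts of every record enter the total, these were 12.6 and 12.6 CPM in simulated microgravity and 15.0 and 15.4 CPM in static control. The conditions did not overlap, and the replicates differed by far less than the conditions. The log2 fold change in the edgeR fit over all 22375 records was -0.27 ± 0.08 (SE, interval -0.44 to -0.10), with an unadjusted p of 0.00275 and an adjusted p of 0.157. In that fit 0 of 19 records of the 9 genes passed, against a background of 1.32% of all records. At an unadjusted p under 0.05 there were 3 of 19, both TET2 records and that of IDH1, against 8.4% of all records. The long record had -0.16 (adjusted p = 0.555) in it.

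The count of the short record was 38.4% and 38.0% of that of the long record in simulated microgravity, against 41.2% and 41.0% in static control. This ratio was computed after the record values had been seen and is given as a description, with no test. The records share 3692 exonic bases, of 9233 in the short transcript and 9589 in the long one, so reads there were counted for both. How much of the short record's count came from its own bases is not known. Its fold change and the ratio are therefore no measure of the short transcript alone. With any 1 library left out, the log2 fold change of the short record stayed between -0.29 and -0.25. Across the settings with all 4 libraries it did not pass, with an adjusted p between 0.1003 (edgeR with a replicate block) and 0.309 (DESeq2). It did pass without simulated microgravity 1, at a log2 fold change of -0.27, a fit in which a lone library stands for simulated microgravity.

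**Figure D2:**
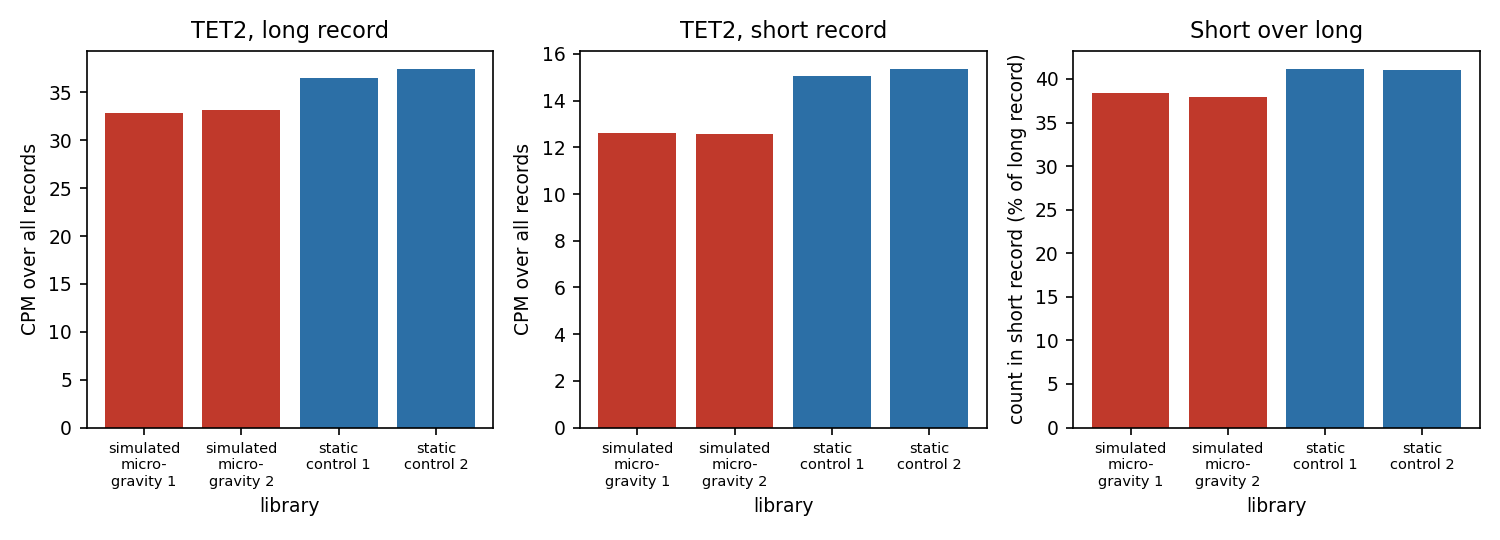
The 2 TET2 records in each library, with simulated microgravity in red and static control in blue. Left and middle, CPM over all records of the long and the short record, and right, the count of the short record as a percentage of the long one, which was 38.4% and 38.0% in simulated microgravity, against 41.2% and 41.0% in static control.

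TET3 had 45.3 and 40.7 CPM in simulated microgravity and 45.3 and 45.6 CPM in static control (NM_144993, hg19 chr2:74273450-74335302, plus strand). Simulated microgravity 2 was the low library, and the other 3 were alike. TET3 had a log2 fold change of -0.08 ± 0.08 (SE, interval -0.25 to 0.09, adjusted p = 0.930 by edgeR), which shrank to -0.0041 without that library. It was -0.16 without simulated microgravity 1.

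TDG, which removes the formyl and carboxyl forms of cytosine, had 97.2 and 110 CPM in simulated microgravity, against 107 and 109 CPM in static control (NM_003211, hg19 chr12:104359593-104382656, plus strand). Simulated microgravity 1 was low and the other 3 libraries were close together. The log2 fold change was -0.06 ± 0.08 (SE, interval -0.22 to 0.10, adjusted p = 0.952 by edgeR), and its sign turned without simulated microgravity 1, to 0.03, and was -0.15 without simulated microgravity 2. Exons of TDG overlap those of another annotated gene on the same strand, ENSG00000288744. The longest overlap of a single exon of that gene was 168 bases, and reads in the overlap cannot be assigned to one of the genes.

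IDH1 was higher in simulated microgravity at an unadjusted p only. Its record NM_005896 (hg19 chr2:209100953-209119806, minus strand) had 120 and 121 CPM in simulated microgravity and 105 and 109 CPM in static control, from counts of 6988 and 7768 against 6364 and 6769. Both simulated microgravity libraries stood above both static control libraries. The mean was 121 ± 0.743 CPM in simulated microgravity and 107 ± 3.21 CPM in static control (SD, n = 2 each). This was a log2 fold change of 0.18 ± 0.07 (SE) with an interval of 0.03 to 0.32. The unadjusted p of the edgeR fit was 0.0237, a value that 4.90% of all genes fell below, and the adjusted p was 0.483. With any 1 library left out the log2 fold change ran between 0.14 (without static control 1) and 0.21 (without static control 2). In these edgeR fits the unadjusted p stayed under 0.05 only where a simulated microgravity library was left out.

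IDH2, the mitochondrial enzyme, had 227 and 217 CPM in simulated microgravity and 235 and 224 CPM in static control (NM_002168, hg19 chr15:90627212-90645708, minus strand). The conditions overlapped, since simulated microgravity 1 was above static control 2. IDH2 had a log2 fold change of -0.05 ± 0.08 (SE, interval -0.22 to 0.12, adjusted p = 0.980 by edgeR). This was -0.01 without simulated microgravity 2 or without static control 1, and -0.08 without simulated microgravity 1 or without static control 2.

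**Figure D3:**
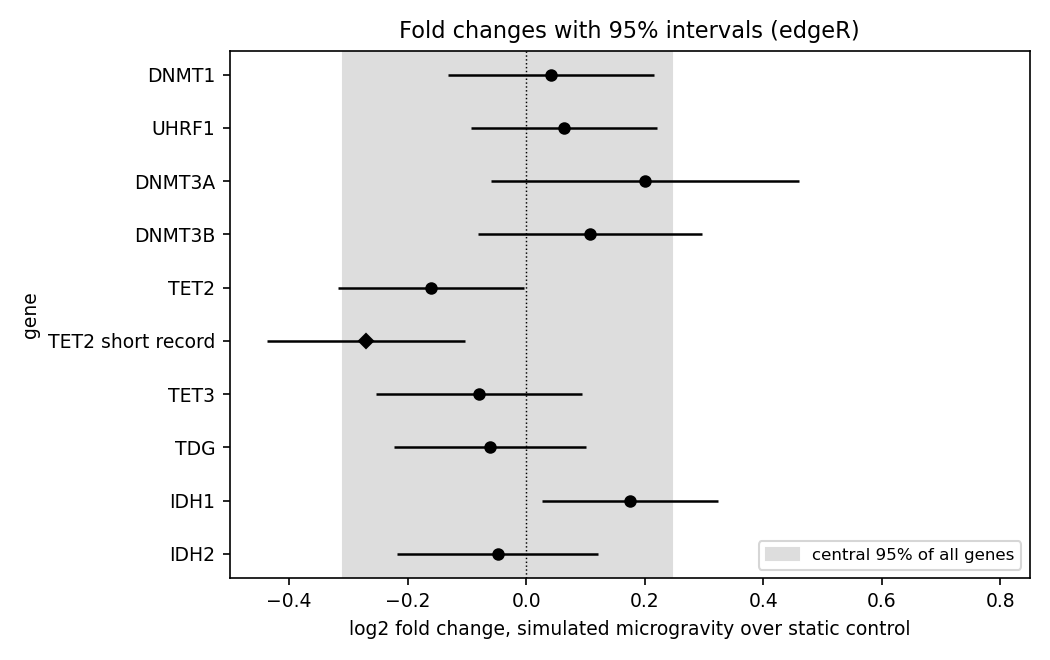
Log2 fold changes, simulated microgravity over static control, with 95% intervals from edgeR for the 9 genes (circles) and for the short TET2 record (diamond, from the fit over all records), above the range of the central 95% of all genes (grey). The intervals of TET2, its short record and IDH1 leave out 0, and those of the other 7 genes include it.

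**Figure D4:**
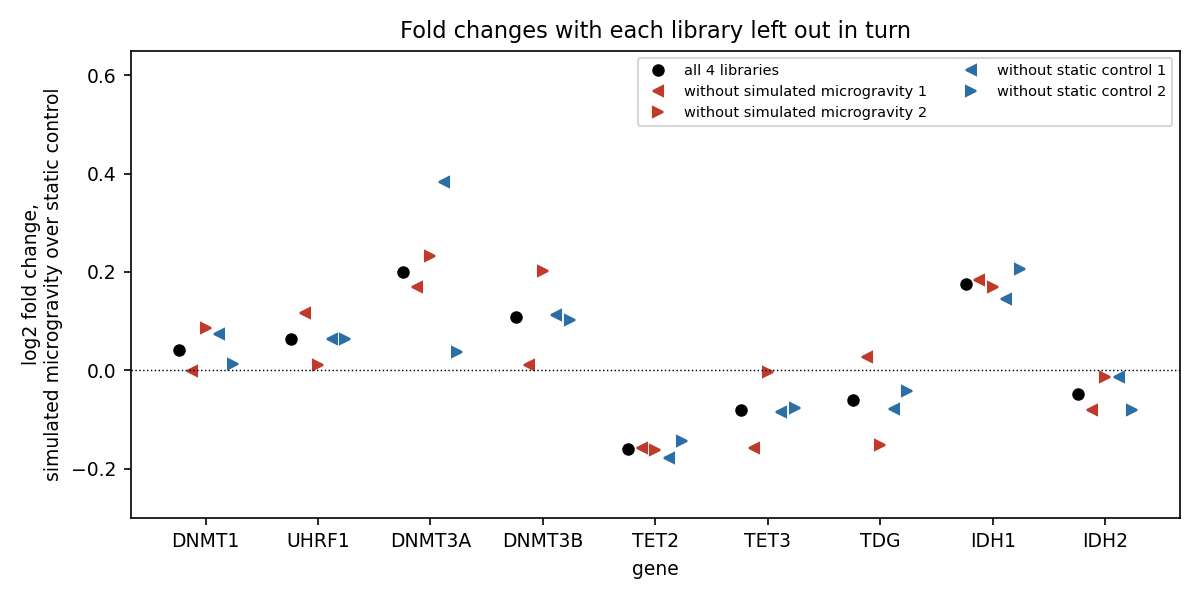
Log2 fold change of each gene with all 4 libraries (black) and with 1 simulated microgravity library (red) or 1 static control library (blue) left out. TET2 stays between -0.18 and -0.14 and IDH1 between 0.14 and 0.21, while DNMT3A spreads between 0.04 and 0.38 and DNMT1 and TDG cross 0.

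Compared per length (CPM per kilobase of the exons of the reference transcript inside the measured record), the order of the genes was the same in the means of both conditions. IDH2 was highest, at 129 in simulated microgravity and 133 in static control, then DNMT1 at 68.8 and 66.8, and IDH1 at 52.1 and 46.1. TDG had 32.5 CPM per kilobase in simulated microgravity and 33.9 in static control, and UHRF1 had 23.7 and 22.7. The lower part of the order held TET2 at 6.75 in simulated microgravity and 7.55 in static control, DNMT3B at 5.15 and 4.78, TET3 at 3.92 and 4.14, and DNMT3A at 2.28 and 1.99. The library ranges of neighbours in this order did not overlap. Per length, DNMT1 was 12.9 and 13.8 times the level of DNMT3B in simulated microgravity, and 14.2 and 13.7 times in static control, while TET2 was 1.63 and 1.82 times TET3 in simulated microgravity, against 1.81 and 1.84 times in static control. The ratio of IDH2 to IDH1 per length was 2.55 and 2.41 in simulated microgravity, against 3.02 and 2.76 in static control, without overlap, a description with no test. Whether the counting used exons only is not given in the sources used here, which limits levels compared between genes more than fold changes of a gene.

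The genes around this group were described by lists chosen by function. In none of the 7 lists that could be followed did a gene pass the edgeR test at an FDR under 0.1 (0 of 134 genes), where 1.1% of all genes did, so that a count of 0 is near the background. Of 22 listed maintenance and targeting partners, 0 had an unadjusted p under 0.05 on the higher side and 1 on the lower side, with a median log2 fold change of -0.0081. The smallest p values belonged to CDCA7L, a relative of a cofactor of the remodeller HELLS, at -0.19 (adjusted p = 0.440), and to HELLS, which opens chromatin for methylation, at 0.12 (adjusted p = 0.788). Among 9 methyl-CpG readers the median was -0.01, with 1 gene at an unadjusted p under 0.05, the zinc finger reader ZBTB38, at 0.25 (adjusted p = 0.436). ZBTB4, a related reader, had -0.22 (adjusted p = 0.726). Of the 19 listed genes of cytosine deamination and base excision, 2 were on the lower side at an unadjusted p under 0.05, the deaminase APOBEC3C at -0.25 (adjusted p = 0.304) and the stress gene GADD45B at -0.21 (adjusted p = 0.571), and the median was -0.02.

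Of 20 genes of the methionine cycle and folate metabolism, which supply the methyl donor S-adenosylmethionine, 1 was on the higher side and 1 on the lower side at an unadjusted p under 0.05, with a median of 0.03. MTR, methionine synthase, had 92.1 and 76.1 CPM in simulated microgravity, against 98.0 and 104 CPM in static control, without overlap (log2 fold change -0.27, adjusted p = 0.274 by edgeR). MTHFD2, a mitochondrial folate enzyme, had 324 and 443 CPM in simulated microgravity and 311 and 330 CPM in static control (0.26, adjusted p = 0.546). Its high library was simulated microgravity 2, and the conditions overlapped.

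The 27 listed genes of 2-oxoglutarate, succinate and fumarate metabolism had a median log2 fold change of 0.04, with 17 positive and 10 negative values, where all genes had 5732 positive and 5683 negative ones. At an unadjusted p under 0.05 there were 3 on the higher side and 0 on the lower side, where 3.43% and 4.64% of all genes stood. GOT1, the cytosolic aspartate aminotransferase, had 137 and 132 CPM in simulated microgravity and 120 and 110 CPM in static control, without overlap (0.22, adjusted p = 0.274 by edgeR). PSAT1, an aminotransferase of serine synthesis that releases 2-oxoglutarate, was singled out after its values had been seen, as the highest fold change of the list: it had 273 and 419 CPM in simulated microgravity and 256 and 268 CPM in static control (0.40, adjusted p = 0.283), with simulated microgravity 2 far above the other libraries. Of 13 TET regulators none had an unadjusted p under 0.05, and the median was -0.02. The transcription factor EBF1 had -0.10 (adjusted p = 0.890) and the O-GlcNAc transferase OGT had 0.09 (adjusted p = 0.904).

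The list counts depended on single libraries, as did the count over all genes, and they are not read as a property of the lists. DESeq2 called 1 gene of the lists, in the 2-oxoglutarate list, where it called 107 over all genes. Without simulated microgravity 1 there were 12 calls, 4 among the methyl-CpG readers, 3 among the genes of deamination and base excision, 2 in the methionine cycle and folate list (MTR and MTHFD2) and 3 in the 2-oxoglutarate list (among them GOT1 and PSAT1), while the count over all genes was 877 against 126 with all libraries. Calls also came without simulated microgravity 2 (GOT1 and KIAA0101) and without static control 2 (PSAT1), but not without static control 1.

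**Figure D5:**
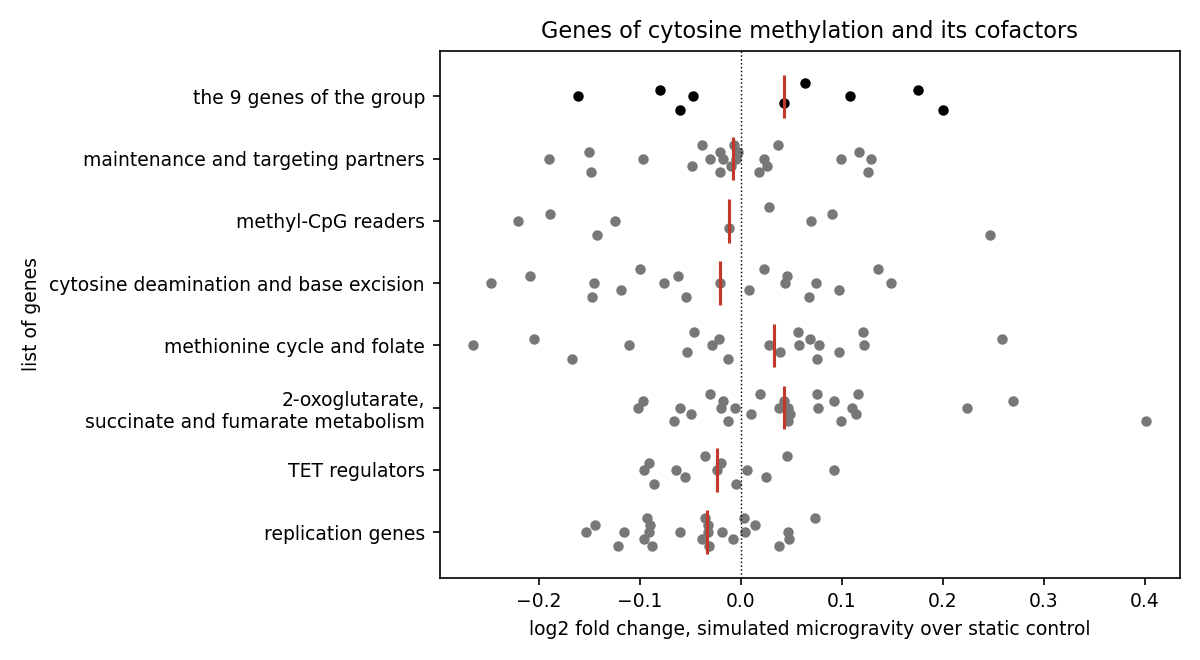
Log2 fold change, simulated microgravity over static control, of each listed gene (points, spread vertically for sight only) and the median of each list (red bars). Medians lay between -0.03 and 0.04, and PSAT1, at 0.40, is the point farthest to the right.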

How the data were processed

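RNA-seq libraries of TK6 cells were analysed, 2 from simulated microgravity and 2 from static control. The authors aligned reads to hg19 with TopHat2 2.0.8 (version and build from the submitters' processing notes), removed reads with multiple mappings with Bamutils, and deposited a raw count per RefSeq record and library. Strand use in counting is not given in the sources used here. The deposited CPM columns are these counts scaled to each library's total, and the deposited log2 fold changes and p-values are the authors' own edgeR comparison. Neither was used.

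Here 1 record per gene symbol was kept, the one with the highest mean count. The fit used edgeR 4.0.16 under R 4.3.3, with TMM factors, filterByExpr (0 records removed), the quasi-likelihood test and Benjamini-Hochberg adjustment over 11415 genes, at an FDR under 0.1. Printed CPM are TMM-scaled and use the totals over the kept records, except where the scale of all records is named. Intervals are 95% intervals from the fit. The 22375 records were tested together likewise. Scripts were tested on simulated data. Alternatives were DESeq2 1.42.0, limma-voom (limma 3.58.1), other edgeR tests, scalings, filters, record choices, a replicate block and leaving out each library. The members and lists were chosen with earlier results of these data known. Named genes were all members with their records, and per list the genes past the FDR or else the 2 with the smallest p, except that some items are not reported here. Promoter windows came from RefSeq and were placed in GRCh37 by exact match. Transcript structures came from GENCODE on GRCh37. The methylation and hydroxymethylation data were not used here.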

Additional observations from a re-analysis of the deposited data

How the results depend on the processing

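No setting called any of the 9 genes. Their direction was kept under all alternatives that used the 4 libraries, and with 1 library left out the sign turned for DNMT1 and TDG, each without simulated microgravity replicate 1 (-0.0019 and 0.027 on the log2 scale, with leave-one-out ranges of -0.0019 to 0.087 and -0.15 to 0.027). Across the alternatives with 4 libraries the adjusted p of TET2 ran between 0.228, where the record listed first, the short one, was used, and 0.852, and that of IDH1 between 0.400 and 0.583. The count of called list genes was 0, against 1 with DESeq2 and 0 to 12 with 1 library left out. The count of called records of the 9 genes was 0, against 0 to 1 with 1 library left out. Over all genes 126 were called, against 194 with edgeR's likelihood ratio test, 296 among all records, and 80 to 877 with 1 library left out. The cause was not tested. With 1 library left out, the lone library of a condition is assumed to vary like the other condition's libraries.

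Whether replicate numbers pair the libraries is not given in the sources used here. The deviations of same-numbered libraries correlated at 0.0878 across genes, a value that rests on 2 libraries a condition and cannot decide it. With the replicate number as a block 0 of the 9 genes, 0 list genes and 88 of all genes were called, with -0.16 (adjusted p = 0.473) for TET2 and 0.18 (adjusted p = 0.400) for IDH1. With 2 libraries a condition, a p that misses the threshold does not show that a level was unchanged, and the intervals give the sizes that remain possible.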

Other observations

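DNMT1 and UHRF1 are known to follow the cell cycle, so genes of DNA replication were described beside them. All 24 of that list were listed, 0 had an unadjusted p under 0.05 or passed the edgeR test, and the median log2 fold change was -0.03, with 7 positive and 17 negative values, where all genes had 5732 positive and 5683 negative ones. LIG1, the ligase that joins Okazaki fragments, had 99.0 and 95.5 CPM in simulated microgravity and 116 and 100 CPM in static control (-0.15, adjusted p = 0.694), and KIAA0101, a PCNA-binding factor, had 90.9 and 113 CPM in simulated microgravity and 109 and 116 CPM in static control (-0.15, adjusted p = 0.791).

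Of 20 germline genes that are known to be silenced by promoter methylation, 1 was listed above 1 CPM. SYCP3, a protein of the meiotic chromosome axis, had 3.40 and 3.95 CPM in simulated microgravity and 3.47 and 3.16 CPM in static control (log2 fold change 0.15, adjusted p = 0.931 by edgeR), and the conditions overlapped.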
